A study of Mus musculus with 4 samples.

Results

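The regions described are 941 ATAC-seq peaks that lie between genes, more than 50000 and at most 200000 bases from the nearest annotated transcription start site. They were taken by annotation class and distance alone from the authors' comparison of Rnf20 knockout and control retinal endothelial cells. They make up 13.7% of the 6891 peaks in the authors' deposited table and 31.3% of its 3009 intergenic peaks. ATAC-seq uses a transposase that cuts and tags open DNA, so a higher level means more accessible chromatin. Cells were taken from mouse retinas at postnatal day 7 by binding to CD31-coupled magnetic beads, CD31 being an endothelial surface protein. The strain name in the labels combines C57BL/6, the transgene Tg(Pdgfb-icre/ERT2) and, at the Rnf20 locus, the allele Rnf20tm1a(EUCOMM)Wtsi. Both groups were floxed at Rnf20 and are given as Rnf20p/p. The treatment described for the mice was 75 µg of 4-hydroxytamoxifen each day from postnatal day 1 to day 4. Knockout pups carried the tamoxifen-inducible Cre that is driven by Pdgfb, a gene active in endothelium, and control pups lacked that Cre, so Rnf20 loss and the presence of active Cre cannot be told apart. Of the 4 libraries, 1 control and 1 knockout have labels that match each other. For the other 2 the title and the genotype field contradict each other, and they were left unassigned. Whether a library came from 1 pup or a pool was not stated.

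Peaks this far from any start site are where distal regulatory elements such as enhancers and insulators lie. Such elements can act on a gene other than the nearest one by looping, so the name attached to each peak below is a position label and not a shown target. RNF20 is the ligase that, with RNF40, attaches ubiquitin to histone H2B, a mark best known from the bodies of transcribed genes. At postnatal day 7 the vessels of the mouse retina are still sprouting and remodelling.

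The table holds 1 mean level per group and peak on a log2 scale, the log2 fold of knockout over control, an unadjusted p and a false discovery rate (FDR). It lists only peaks with an unadjusted p under 0.05, so shares below are shares of listed peaks. From the ratio of FDR to p, about 76326 peaks were tested, of which about 3816 would pass that threshold with no effect. No value per library was used, so no spread between animals, error of a fold or test over samples can be given. Peaks with an FDR under 0.05 are called changed, which holds for 3.02% of all listed peaks, and 62.1% of all listed peaks were higher in the knockout mean. Percentages carry 95% Wilson intervals, which cover counting error only and take each peak as its own observation, although neighbours can depend on each other. Library depth was also not given in the sources used here, so it cannot qualify single peaks. Libraries were made from many cells at once, so a change in the mix of cells and a change within each cell cannot be told apart.

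The sequences of most of the peaks were not analysed here. RefSeq start windows, which run from 250 bases before to 50 after a transcript's start on GRCm38.p6, the assembly behind mm10, overlapped 13 of the 941 peaks. Of these, 9 were higher and 4 lower in the knockout mean, and 0 were called. All 13 were annotated as intergenic by the authors, although RefSeq places a transcript start in or beside them. The 3 windows below are shown because they lie whole within a peak, 300 bases each, and give the DNA of 2 higher and 1 lower peak of high level. They are written 5′ to 3′ on the strand of the RefSeq transcript, with matches to the searched motifs in capitals.
Gm27572 start window, chr13:108498537-108498836, - strand: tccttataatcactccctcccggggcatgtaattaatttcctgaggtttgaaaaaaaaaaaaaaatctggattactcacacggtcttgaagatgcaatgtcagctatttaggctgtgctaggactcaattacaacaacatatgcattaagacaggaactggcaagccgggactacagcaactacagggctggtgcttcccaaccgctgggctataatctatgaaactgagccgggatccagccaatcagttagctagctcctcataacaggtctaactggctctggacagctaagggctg
Gm30615 start window, chr16:76471214-76471513, - strand: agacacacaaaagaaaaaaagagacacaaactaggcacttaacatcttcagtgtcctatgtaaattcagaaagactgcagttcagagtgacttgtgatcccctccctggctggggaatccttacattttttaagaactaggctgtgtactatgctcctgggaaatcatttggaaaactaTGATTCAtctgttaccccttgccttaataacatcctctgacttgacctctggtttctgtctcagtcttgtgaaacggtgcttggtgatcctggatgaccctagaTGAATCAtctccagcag
Gm46560 start window, chr16:31509074-31509373, + strand: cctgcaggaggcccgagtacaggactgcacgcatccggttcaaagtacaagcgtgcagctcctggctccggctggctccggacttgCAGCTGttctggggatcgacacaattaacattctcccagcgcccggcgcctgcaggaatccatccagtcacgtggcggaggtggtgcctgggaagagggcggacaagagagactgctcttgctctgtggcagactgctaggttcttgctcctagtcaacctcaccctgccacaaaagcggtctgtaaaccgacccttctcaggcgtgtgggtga

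The peak over the Gm27572 window, assigned to Pde4d, had a knockout level of 6.04 and a control level of 5.19 in the authors' deposited table (log2 fold 0.85, FDR 0.263). Over the Gm30615 window, the levels in the authors' deposited table were 6.47 in knockout and 5.69 in control (log2 fold 0.79, FDR 0.423). Over the Gm46560 window, the authors' deposited table gave 5.86 in knockout and 6.55 in control (log2 fold -0.70, FDR 0.402). These 3 sites were thus open in both groups and were not called. The search used 15 motifs on both strands, read as exact letters. They were AP-1 TGANTCA, ETS CCGGAAGT, the ETS core AGGAAG, the long CTCF motif, a short CTCF form AGGGGGC, FOX TGTTTAC, for SOX factors ACAATGG, for GATA factors AGATAAG, RBPJ GTGGGAA, for TEAD factors GGAATG, MEF2, KLF GGGTGTGG, TCF/LEF ATCAAAG, NFI and the E-box CAGCTG. The Gm30615 window held 2 matches to the AP-1 letters, beginning at positions 180 and 284 from its 5′ end. These letters leave the centre base free (N), and the matches read TGATTCA and TGAATCA. They are thus matches to the searched letters only and not shown AP-1 sites. The Gm46560 window held 1 E-box match, at position 87, and the Gm27572 window held 0 matches. None of the matches overlapped another motif. Of 32817 mouse RefSeq start windows, 7.81% held the AP-1 letters and 16.3% the E-box letters, so a match in a single window is a description only.

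Among the peaks were 24 assigned to 20 microRNA genes, 22 of them higher in the knockout mean and 2 lower. That is 91.7% higher (74.2% to 97.7%), an interval that includes the 79.4% of all 941 peaks. The peak of smallest FDR among all 941 was one of these 24, upstream of Mir129-1. The mature sequences below, from RefSeq, are those of Mir129-1, of Mir148a, which has 3 of the peaks, and of Mir29a, a regulator of collagen genes. Capitals mark the seed, bases 2 to 8, through which a microRNA pairs with its targets, and the 3 seeds differ from each other.
mmu-miR-129-5p: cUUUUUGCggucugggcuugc
mmu-miR-148a-3p: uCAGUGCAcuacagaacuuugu
mmu-miR-29a-3p: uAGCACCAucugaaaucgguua

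The Mir129-1 peak (chr6:28928061-28928270) lies 94453 bases upstream of the assigned start and had a knockout level of 4.43 and a control level of 1.42 in the authors' deposited table, a log2 fold of 3.01 at FDR 0.00631. It is the only one of the 24 that was called, beside 2.66% of all 941 peaks and 3.02% of all listed peaks. By RefSeq it lies within the span of Snd1, a gene for a nuclease-domain protein, and so is not intergenic there. The 3 Mir148a peaks lay 58449, 106433 and 150887 bases downstream of the start, with log2 folds of 1.89, 1.09 and 0.60 in the authors' deposited table at FDR of 0.337 or more. The Mir29a peak, 51150 bases downstream, had 5.46 in knockout and 4.56 in control in the authors' deposited table (log2 fold 0.90, FDR 0.337). Higher mean levels were thus listed at both genes without passing the threshold.

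Most of the listed peaks in this distance range had a higher mean in the knockout. There were 747 higher and 194 lower, which is 79.4% higher (76.7% to 81.8%), beside 62.1% of all listed peaks. Among the 2068 other intergenic peaks 73.1% were higher (71.2% to 75.0%), and among peaks that are not intergenic 52.0% (50.4% to 53.5%). With all levels pooled, the distant peaks had the highest share of these 3 classes, with intervals that do not overlap. The other intergenic class pools nearer peaks with those beyond 200 kb, which by themselves stood at 81.6% (77.1% to 85.4%). A high share is thus not particular to the 50 to 200 kb range. At FDR under 0.05, 25 of the 941 were called, or 2.66%, beside 3.02% of all listed peaks, a share near the background. Of these 25, 15 were higher and 10 lower, beside 89 higher and 119 lower among the 208 called in the whole table. Of all listed peaks, 1.29% were called higher and 1.73% called lower. At FDR under 0.1, 77 of the 941 passed, or 8.18%, beside 7.89% of all listed peaks. The call rate was 2.01% among the 747 higher peaks and 5.15% among the 194 lower ones. In the whole table the counts were 89 of 4276 higher and 119 of 2615 lower peaks, so there too lower peaks were called more often.

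**Figure D1:**
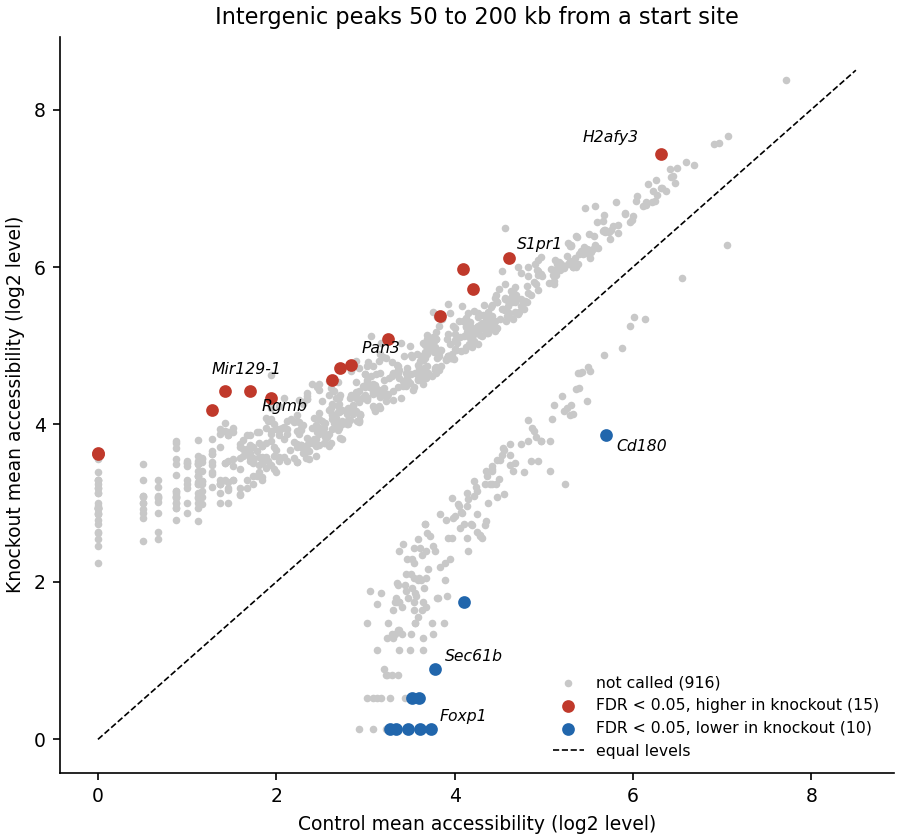
Knockout mean level against control mean level, both log2, for the 941 intergenic peaks 50 to 200 kb from a start site, with 1 point per peak and the dashed line marking equal levels. Red points are the 15 peaks called higher and blue points the 10 called lower at FDR under 0.05, and the empty band along the line reflects that only peaks with an unadjusted p under 0.05 are listed.

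Median sizes were close in both directions. The median log2 fold was 1.35 among higher peaks (quartiles 0.98 and 1.88) and -1.40 among lower peaks (quartiles -1.98 and -1.07), beside 1.37 and -1.27 in the whole table. Higher peaks were wider, with a median of 316 bases against 207.5 for lower peaks. They also had higher mean levels over both groups, with a median of 3.90 against 3.27. Width and level are measures the choice of peaks did not use, but each also bears on whether a peak passes a p threshold, and that part was not tested.

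The 2 directions of called peaks differed in kind. The 15 called higher had a median mean level of 4.04 and a median width of 366 bases. The 10 called lower had 2.75 and 217 bases. In 5 of the 10 called lower, the knockout level was 0.13, the lowest value in that column, while in 2 of the 15 called higher the control level was 0, the lowest in its own column. Among all 941, 11 peaks were at the knockout minimum and 30 at the control minimum. The called losses were thus mostly narrow, low peaks listed at or near the bottom of the knockout scale, while 13 of the 15 called gains had a control level above the minimum of its column.

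Direction varied with signal. When peaks were split at the quartiles of mean level of the whole table (3.01, 3.74 and 4.70), 70.7% of the distant peaks in the lowest quartile were higher in knockout. The share was 74.9% in the next quartile, 81.0% in the third and 90.6% in the highest (222 of 245, 86.3% to 93.7%). Other intergenic peaks stood at 72.2% in the lowest quartile, slightly above the distant ones, and at 87.7% in the highest, where peaks outside intergenic DNA stood at 49.2%. The intervals of the distant and the other intergenic peaks overlapped in the lowest, the third and the highest quartile and did not in the second. Of the distant peaks, 10 of 242 were called in the lowest quartile, 2 higher and 8 lower. In the highest, 6 of 245 were called, 5 higher and 1 lower, beside 3.02% called of all listed peaks. Called peaks of the other intergenic class split alike, with 8 higher and 20 lower in the lowest quartile and 12 and 2 in the highest. Outside intergenic DNA the called counts were 10 higher and 30 lower, then 8 and 9. How the authors scaled the libraries was not given in the sources used here, and its part in how direction varied with signal was not tested.

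**Figure D2:**
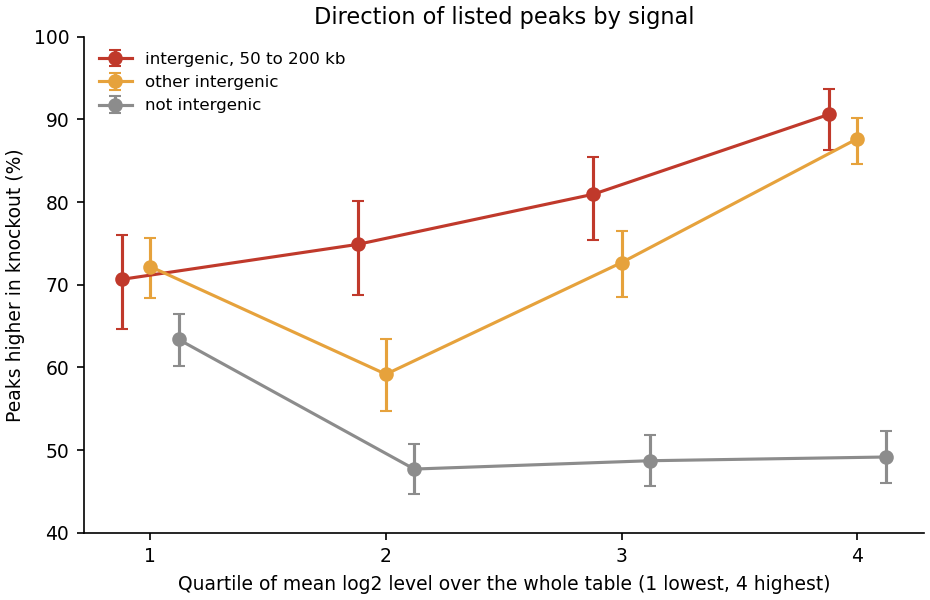
Percentage of listed peaks with a higher knockout mean, by quartile of mean log2 level over the whole table, with 95% Wilson intervals as bars. Intergenic peaks 50 to 200 kb from a start site go from 70.7% to 90.6%, while peaks outside intergenic DNA go from 63.4% to 49.2%.

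The share of higher peaks varied little with distance inside the range. It was 78.6% at 50 to 75 kb (276 of 351), 77.7% at 75 to 100 kb (157 of 202), 80.2% at 100 to 150 kb (210 of 262) and 82.5% at 150 to 200 kb (104 of 126), with intervals that overlap. Intergenic peaks within 10 kb stood at 68.6% and those at 10 to 50 kb at 72.6%. Beyond 200 kb the share was 81.6%. Few peaks were called in each bin, beside 3.02% of all listed peaks. At 50 to 75 kb, 5 of 351 were called, 5 higher and 0 lower. At 150 to 200 kb, 5 of 126 were called, 1 higher and 4 lower. Intergenic peaks beyond 200 kb, outside the range, had 20 of 332 called, 7 higher and 13 lower. From 100 to 200 kb together, 5 were called higher and 7 lower, the opposite balance to the whole class. On the upstream side of the assigned gene, 81.2% of 515 peaks were higher, with 12 called higher and 2 lower. On the downstream side, 77.2% of 426 were higher, with 3 called higher and 8 lower. These called counts are small, and the differences between bins and between sides were not tested.

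**Figure D3:**
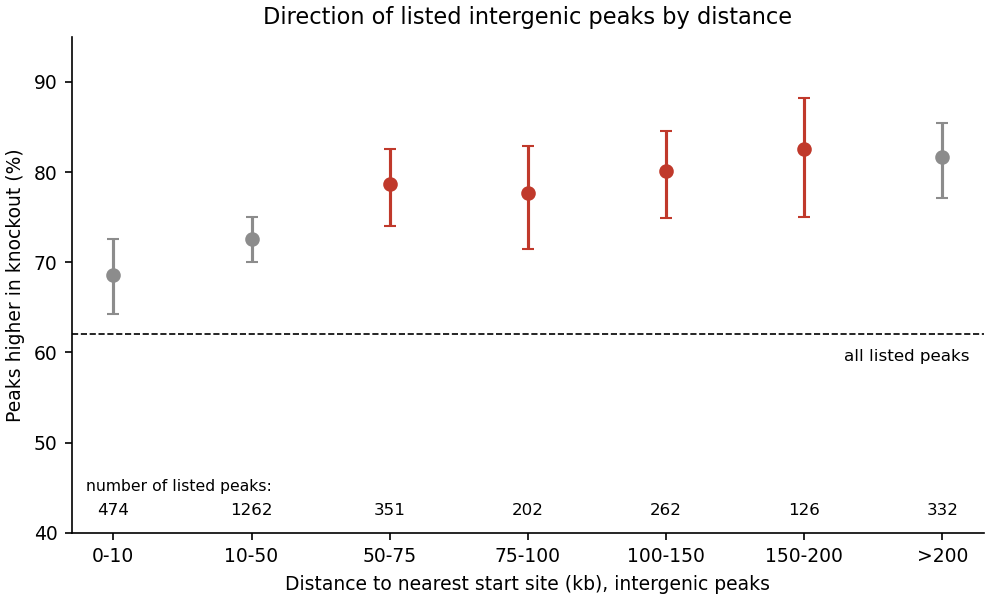
Percentage of listed intergenic peaks with a higher knockout mean, by distance in kb to the nearest annotated start site, with 95% Wilson intervals as bars and the number of listed peaks under each point. Red points are the 4 bins from 50 to 200 kb, which run from 77.7% to 82.5%, and the dashed line is the 62.1% of all listed peaks.

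At the lower bound of the range, the nearest peaks outside were assigned to Ercc4 at 49971 bases (log2 fold 0.81) and Rybp at -49828 (-1.65), and the nearest inside to Prickle2 at -50026 (1.83) and Vmn2r87 at -50033 (1.99), with negative distances upstream, all in the authors' deposited table. At the upper bound, the nearest inside were Cadps at -199837 bases (1.78) and Marcks at -199609 (0.95), and the nearest outside Ankrd55 at -200083 (0.95) and Ptpru at 200305 (control listed at 0), again in the authors' deposited table. Across the 18 chromosomes with at least 20 of the peaks, the share higher ran from 71.0% on chromosome 17 (22 of 31) to 83.9% on chromosome 3 (52 of 62).

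Among genes with known vascular roles, a called gain lay near S1pr1, the endothelial receptor for sphingosine 1-phosphate that stabilises junctions and restrains sprouting. Its called peak (chr3:115647027-115647590), 67746 bases downstream of the start, had 6.12 in knockout and 4.61 in control in the authors' deposited table, a log2 fold of 1.5 at FDR 0.0169. A second S1pr1 peak 65193 bases away had 4.92 and 3.67 (log2 fold 1.25, FDR 0.337 per the authors' deposited table). The third, 62669 bases away, had 5.24 and 4.13 in the authors' deposited table (log2 fold 1.11, FDR 0.407). All 3 lie within 5553 bases of each other and all had the higher mean in knockout, and 1 of the 3 passed the threshold. On the other side of the gene, an intergenic peak at -43549 bases, outside the distance range, had a log2 fold of 0.74 in the authors' deposited table (FDR 0.457).

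Accessibility also rose near Rgmb, which encodes a co-receptor for bone morphogenetic proteins that also binds the guidance receptor neogenin. The peak (chr17:15997307-15997590), 170863 bases upstream, had 4.43 in knockout and 1.70 in control (log2 fold 2.73, FDR 0.0169 per the authors' deposited table). Near Serpine2, which encodes a secreted inhibitor of thrombin and other serine proteases, 1 of 3 peaks was called, with 4.57 in knockout and 2.63 in control in the authors' deposited table (log2 fold 1.94, FDR 0.0484). The other 2 Serpine2 peaks had log2 folds of 2.45 (FDR 0.0632) and 0.94 (FDR 0.493) per the authors' deposited table. At both genes every listed peak in the range therefore had the higher knockout mean.

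The peak assigned to Pan3, which encodes a subunit of a poly(A) deadenylase complex, had 4.75 in knockout and 2.84 in control (chr5:147558432-147558798, log2 fold 1.90, FDR 0.0355 per the authors' deposited table). Its assigned start is 128459 bases away, but by RefSeq spans the nearest coding gene is Flt1, whose end lies 2806 bases off. Flt1 encodes the VEGF receptor that binds and sequesters VEGF. In an intron of that transcript, a further peak assigned to Pan3 had a log2 fold of 1.09 (FDR 0.422 per the authors' deposited table). An intronic Pan3 peak had -2.25 (FDR 0.0959 per the authors' deposited table), so peaks carrying this name did not all go one way.

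Hmga2 and Arglu1 each had a called gain as well. Hmga2 encodes an architectural chromatin protein of growing tissues, and its peak 108390 bases upstream had 5.09 in knockout and 3.25 in control (log2 fold 1.84, FDR 0.0362 per the authors' deposited table). A stronger Hmga2 peak 140260 bases upstream had 7.11 and 6.26 in the authors' deposited table (log2 fold 0.86, FDR 0.263). Arglu1, which encodes a splicing and transcription cofactor, had 3 peaks on its upstream side. The called one had 4.72 in knockout and 2.72 in control in the authors' deposited table (log2 fold 1.99, FDR 0.039). The others had log2 folds of 2.40 (FDR 0.079) and 0.95 (FDR 0.386) per the authors' deposited table.

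Of the remaining called gains, Otud4, a deubiquitinase gene, had 5.38 against 3.84 in the authors' deposited table (log2 fold 1.55, FDR 0.0355). Ralgps2, which encodes an exchange factor for Ral GTPases, had 5.72 against 4.21 (log2 fold 1.5, FDR 0.0464 per the authors' deposited table). H2afy3 had the highest level of the called peaks, 7.43 against 6.32 in the authors' deposited table (log2 fold 1.12, FDR 0.0464). That peak is 1 of 3 in a stretch of 8342 bases whose nearest coding gene by RefSeq is Myc, a growth regulator, 337825 bases away. Lingo1, which encodes a neuronal cell surface protein, had 4.33 against 1.94 in the authors' deposited table (log2 fold 2.39, FDR 0.0332). At Tmtc1 (knockout 3.64) and Rit2 (knockout 3.63) the control was listed at 0 in the authors' deposited table, with FDR 0.0441 and 0.0355, so no fold is given. The last 2 of the 15 lay at a predicted gene and at a site with no gene name on chromosome 1, the latter with 4.19 against 1.28 in the authors' deposited table (log2 fold 2.92, FDR 0.0392).

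Among other intergenic peaks, 20 of the 36 called losses lay in the lowest quartile of mean level, and outside intergenic DNA 30 of 73. In the 50 to 200 kb class the called losses lay mostly at low levels, 8 of the 10 in that quartile. The most significant was 166713 bases upstream of Cd180, which encodes a Toll-like receptor relative of B cells, with 3.87 in knockout and 5.70 in control in the authors' deposited table (chr13:102526599-102527069, log2 fold -1.83, FDR 0.00691). It was the only called loss with a mean level in the highest quartile. At Sec61b, a subunit of the protein translocation channel, the authors' deposited table gave 0.89 in knockout and 3.78 in control (log2 fold -2.88, FDR 0.0233). Slc16a9, a gene of the monocarboxylate transporter family, had 0.52 against 3.60 (log2 fold -3.08, FDR 0.0332 per the authors' deposited table). The Sec61b and Slc16a9 peaks were thus listed near the bottom of the knockout scale, and the Cd180 peak was not.

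The Thap1 peak, near a transcription factor gene, had 0.52 against 3.52 in the authors' deposited table (log2 fold -3.00, FDR 0.0464). Tshz1, a zinc finger homeobox gene, had 1.75 against 4.11 (log2 fold -2.35, FDR 0.0332 per the authors' deposited table). The remaining 5 were at the knockout minimum of 0.13 in the authors' deposited table, where a fold depends on that minimum. Their control levels in the authors' deposited table were 3.74 at Foxp1 (FDR 0.0196), 3.61 at Mtdh (FDR 0.0251), 3.48 at Lacc1 (FDR 0.0333), 3.34 at Nxpe2 (FDR 0.039) and 3.28 at St3gal1 (FDR 0.0464). Foxp1 encodes a forkhead transcription factor with roles in vessels and heart, and St3gal1 a sialyltransferase. None of the 10 called losses was assigned to a gene of the 14 vessel and pathway lists described next, beside 63 of all 941 peaks. With so small a share in the class, 10 losses are too few to show a difference.

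The gene lists were matched by the assigned symbol. Of 532 genes on 14 vessel and pathway lists, 50 had a peak in the range, 63 peaks in all. Of these, 51 were higher and 12 lower, or 81.0% higher (69.6% to 88.8%), with a median log2 fold of 1.34, 2 called higher and 0 called lower. Over all 941 peaks 79.4% were higher, so the share for the list genes is near that of the whole class.

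The list for TGF-beta and BMP signalling had 9 peaks at 8 of its 47 genes, 9 higher and 0 lower, with Rgmb called. In the whole class 79.4% of peaks were higher. Bmper, which encodes an extracellular modulator of BMP signalling made by endothelial cells, had 2 peaks with log2 folds of 1.85 (FDR 0.0994) and 1.17 (FDR 0.43) per the authors' deposited table. The BMP ligand gene Bmp2 had 3.96 in knockout and 2.46 in control in the authors' deposited table (log2 fold 1.5, FDR 0.345). The receptor gene Acvr2a had 3.00 and 1.00 in the authors' deposited table (log2 fold 2.00, FDR 0.383). Smad6, an inhibitory Smad gene, had a log2 fold of 1.67, Smad2 1.45, Ltbp1 0.94 and Bmp6 0.79 in the authors' deposited table, all at FDR of 0.377 or more. Outside this class, listed peaks at some of these genes went both ways, and none was called. There, log2 folds in the authors' deposited table were 1.78 and -1.18 at Bmper, -0.98, -1.36 and 1.40 at Ltbp1, and -1.33 at Smad2. The median over the list's 9 peaks in the range, all higher, was 1.5, beside 1.35 over the 747 higher peaks of the class.

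The matrix, protease and adhesion list had 7 peaks at 4 of 64 genes, 7 higher and 0 lower, and 0 called. Adamts1, an antiangiogenic protease gene, had 1 peak with 3.30 in knockout and a control listed at 0 (FDR 0.0891), and 1 with a log2 fold of 1.48 (FDR 0.447), both in the authors' deposited table. Itga4, an integrin subunit gene, had 3 peaks with log2 folds of 0.74, 1.34 and 1.39 in the authors' deposited table. Itgb3 had a log2 fold of 1.80 (FDR 0.437) per the authors' deposited table. At Col3a1, a fibrillar collagen gene, the authors' deposited table gave 2.88 in knockout and a control listed at 0 (FDR 0.237).

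Axon and vessel guidance genes had 9 peaks at 8 of 77 genes, 8 higher and 1 lower, and the called Rgmb peak is on this list too. Sema6d had 4.79 against 3.03 in the authors' deposited table (log2 fold 1.76, FDR 0.0574) and a second, stronger peak with 6.79 against 6.15 (log2 fold 0.65, FDR 0.357 per the authors' deposited table). Sema3e, a repulsive cue for vessels through plexin D1, had 5.42 against 3.95 in the authors' deposited table (log2 fold 1.47, FDR 0.158). The lower peak was at Neo1, the neogenin gene, with 0.82 against 3.23 (log2 fold -2.40, FDR 0.205 per the authors' deposited table). Efnb2, which marks arteries, had a peak 172180 bases downstream with a log2 fold of 1.09 (FDR 0.496 per the authors' deposited table). Of these values the Rgmb peak alone passed the threshold.

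Endothelial identity genes were divided, with 5 peaks higher and 3 lower at 6 of 40 genes and 0 called. Cdh5, the gene for the junction protein VE-cadherin, had 4.02 against 1.42 at 162338 bases upstream (log2 fold 2.6, FDR 0.134 per the authors' deposited table). Its second peak had a log2 fold of 1.38 (FDR 0.486 per the authors' deposited table). The ETS factor gene Erg had 3.72 against 1.74 in the authors' deposited table (log2 fold 1.98, FDR 0.232). Calcrl, an adrenomedullin receptor gene, had 1.34 against 3.41 (log2 fold -2.07, FDR 0.179 per the authors' deposited table). The 2 Mef2a peaks were listed in opposite directions, -1.63 and 1.42 in the authors' deposited table. Etv6 had a log2 fold of -1.33 and Foxo1 one of 0.70 in the authors' deposited table.

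Sprouting genes were divided as well, with 3 higher and 2 lower at 4 of 28 genes and 0 called. Esm1, a tip cell marker, had peaks 55769 and 61169 bases from its start with log2 folds of -1.96 (FDR 0.209) and 1.62 (FDR 0.294) per the authors' deposited table. The chemokine gene Cxcl12 had 3.54 against 1.12 in the authors' deposited table (log2 fold 2.42, FDR 0.134). Vegfc, a ligand gene of the VEGF list, had 4.49 against 2.97 in the authors' deposited table (log2 fold 1.52, FDR 0.234). The Notch list had 2 peaks, both higher, at Rbpj, the DNA-binding factor of the pathway (2.20, FDR 0.139), and Dlk1 (2.29, FDR 0.217), with values per the authors' deposited table. The Wnt and barrier list had 1 of 33 genes, Lef1 (2.04, FDR 0.264 per the authors' deposited table). None of these values passed the threshold.

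Among growth factor genes of the FGF, EGF and PDGF list, 6 peaks were higher and 2 lower at 7 of 59 genes. Kit had 4.24 against 2.03 in the authors' deposited table (log2 fold 2.21, FDR 0.0507), just above the threshold, and 2 peaks of its ligand gene Kitl had log2 folds of 1.10 and 1.29 in the authors' deposited table. Fgf20 had 0.82 against 3.30 (log2 fold -2.48, FDR 0.136 per the authors' deposited table). The other genes of the sphingosine 1-phosphate and lipid receptor list were the lysophosphatidic acid receptor genes Lpar1 (1.84, FDR 0.171) and Lpar4 (-1.05, FDR 0.288) and the lipid phosphatase gene Plpp3 (1.25, FDR 0.507), all in the authors' deposited table. Immediate-early genes had 4 higher and 1 lower, with Klf6 at 1.67 (FDR 0.151) and Dusp6 at -1.01 (FDR 0.365) and 0.99 (FDR 0.533) per the authors' deposited table. The proliferation gene Mki67 had 1 peak each way, -1.43 (FDR 0.134) and 1.34 (FDR 0.47) per the authors' deposited table. The 29 genes of the H2B ubiquitination and Paf1 list had 0 peaks in the range.

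**Figure D4:**
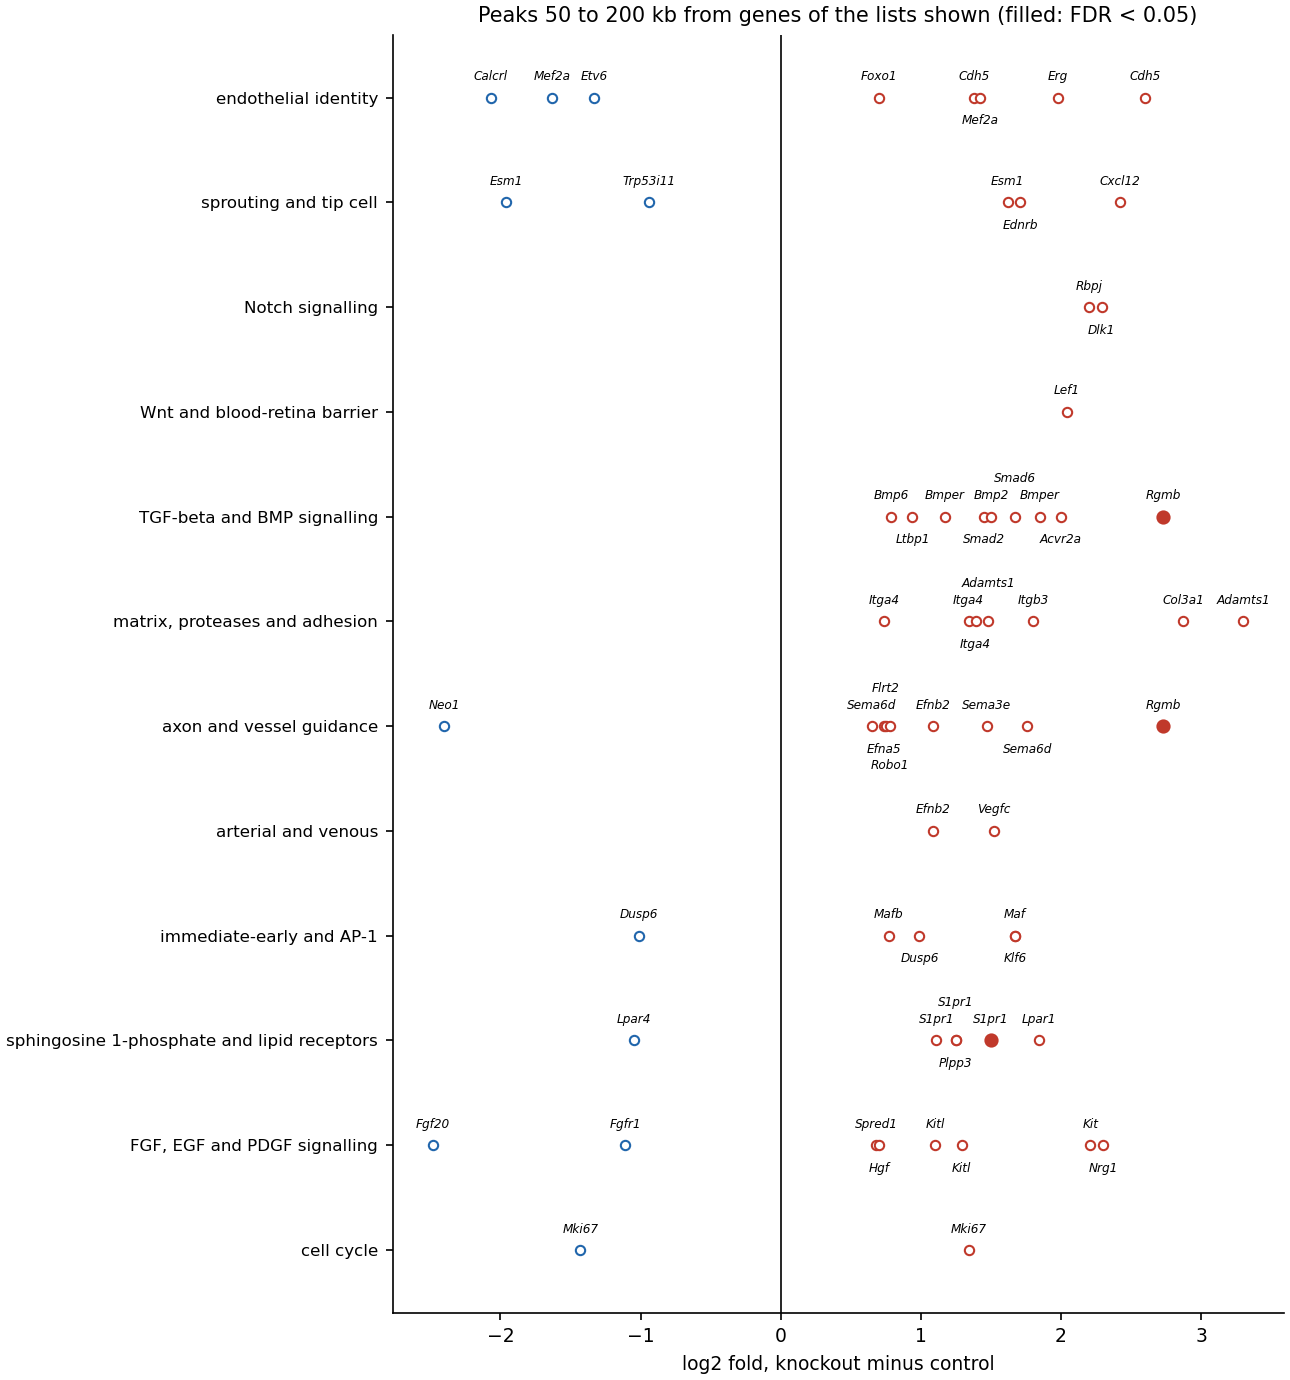
Log2 fold of knockout over control for each peak 50 to 200 kb from a gene of the vessel and pathway lists named on the vertical axis, with 1 circle per peak, red for higher and blue for lower, and filled where FDR was under 0.05. Rgmb appears on 2 lists and, with S1pr1, is the gene with a filled circle; the TGF-beta and BMP list and the matrix list have no peak left of 0, while the endothelial identity list has 3.

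Markers of other retinal cells gave few peaks in the range. Of 171 genes on 10 marker lists, 8 had a peak, 9 peaks in all, 8 higher and 1 lower, and 0 called. Their levels in the authors' deposited table ran from 2.24 to 4.96 in knockout and from 0 to 4.62 in control. The photoreceptor, amacrine and horizontal, astrocyte, pericyte and smooth muscle, and erythroid lists had 0 peaks. The microglia and macrophage list had 3 higher (Irf8 at 2.39 and 1.66, Runx1 at 1.31 in the authors' deposited table), and the pigment epithelium list 3 higher (Tyr 2.18, Tyrp1 1.41, Mitf 0.97 in the authors' deposited table). Because peaks with a p of 0.05 or more are not in the table, the marker levels cannot check the labelled cell type, and the part of other cells in the results was not tested.

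The 941 peaks were spread over 750 gene names, 601 of them with a single peak, and 3 peaks had no name. Of the 149 genes with at least 2 peaks, 98 had all peaks higher, 5 all lower and 46 both. Zfp462, which encodes a zinc finger protein of chromatin, had the most, with 5 peaks from 69266 to 193450 bases away, all higher, with log2 folds from 0.94 to 2.50 in the authors' deposited table and a smallest FDR of 0.113. Lyplal1 had 4, all higher, from 1.29 to 2.53 in the authors' deposited table (smallest FDR 0.0574). Zdhhc25 had 3 higher, from 0.92 to 1.96 in the authors' deposited table. Sgk1, a serum- and glucocorticoid-induced kinase gene, had 2 higher and 1 lower, the highest at 7.25 against 6.42 in the authors' deposited table (log2 fold 0.83, FDR 0.0929). Rybp, a Polycomb component gene, had 1 higher and 2 lower.

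Peaks were also grouped with their neighbours. Grouped at gaps of at most 50 kb, 643 peaks stood alone, 108 pairs formed, and 26 runs of 3 or more held 82 peaks. Of the pairs, 70 were both higher, 8 both lower and 30 opposite, in a class where 79.4% of all peaks were higher. Of the 26 runs, 17 were all higher, 1 all lower and 8 mixed. In the run of 5 at Rgs3 and Zfp618, log2 folds in the authors' deposited table were 0.73, -2.02, -2.36, 1.52 and 1.16 in order along chromosome 4. Rgs3 encodes a regulator of G protein signalling. The lower peaks of that run were narrower than 200 bases and its last peak, at 703 bases, was the widest. The run of 4 at Tmem17 and B3gnt2 had 2.10, 0.97, 0.76 and 0.84 in the authors' deposited table, and a run of 4 at predicted genes on chromosome 10 had 2.03, 1.23, 1.60 and 1.94 in the authors' deposited table.

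**Figure D5:**
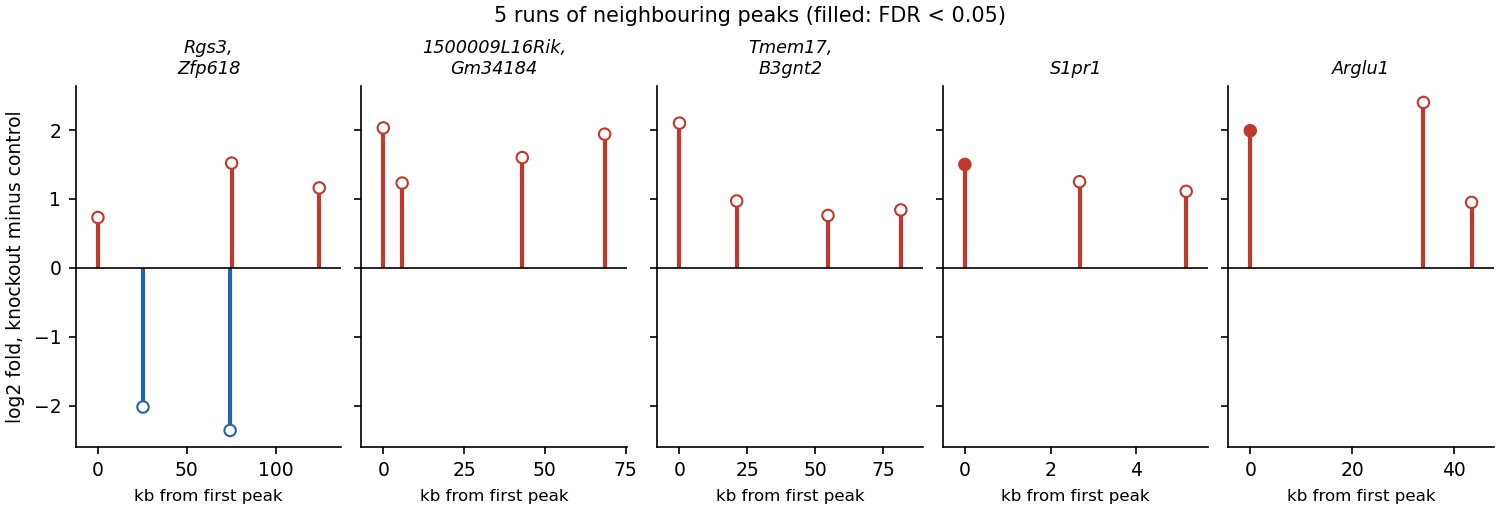
Log2 fold of knockout over control of each peak in the 5 runs with most peaks, against the distance in kb from the run's first peak, with filled circles where FDR was under 0.05. Peaks of the runs at the predicted genes, at Tmem17 and B3gnt2, at S1pr1 and at Arglu1 are all above 0, and the run at Rgs3 and Zfp618 has 3 above and 2 below.

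When the nearest listed peak of any class lay within 5 kb, it had the same direction for 58 of 72 of the distant peaks (80.6%), beside 77.8% of all listed peaks. This rested on the higher ones, 54 of 61. Of the 11 lower ones, 4 had a lower neighbour, beside 74.2% for lower peaks of the whole table. Beyond 200 kb the shares were 56.7% and 55.4%. The near neighbours of these 11 lower peaks were thus mostly higher, in a class where 79.4% of peaks were higher, beside 62.1% of all listed peaks. Whether this goes beyond that mix of directions was not tested.

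The genes named by the distant peaks also had other listed peaks. At 15 of them a promoter peak was listed, 16 peaks in all, 6 higher and 10 lower. The 37.5% higher is close to the 36.4% of all 415 listed promoter peaks. Introns of the same genes had 190 peaks, 56.8% higher, beside 55.5% of all listed intron peaks. At Hmga2 the promoter peak had 3.10 in knockout and 4.51 in control in the authors' deposited table (log2 fold -1.40, FDR 0.394), opposite to its distant peaks. An intergenic Hmga2 peak at -1826 bases had 3.57 against 2.09 (log2 fold 1.48, FDR 0.417 per the authors' deposited table), so listed peaks near this start went both ways. Lef1, a Wnt effector gene, had a promoter peak of 6.23 against 6.98 in the authors' deposited table (log2 fold -0.75, FDR 0.225), again opposite to the distant one. At Zc3h12c, which encodes an RNA-binding regulator of inflammation, both went the same way, with log2 folds of 1.11 at the promoter and 1.07 at the distant peak in the authors' deposited table. Foxo1, a forkhead factor gene of endothelial quiescence, had a distant peak of 0.70 while its 4 nearer peaks ran from -1.21 to -1.39 in the authors' deposited table. None of these promoter values passed the threshold.

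The class depends on the authors' gene models. In the RefSeq table of GRCm38.p6, 221 of the 941 peaks fell on a gene span, 162 of them on a long noncoding RNA gene and 45 on a protein-coding gene. Of the 221, 77.4% were higher (171), with 5 called. The other 720 fell on no span, and 576 of them were higher. The assigned gene was also the nearest coding span for 555 of the 693 peaks assigned to a coding gene, and for 15 of the 21 called ones. A further 29 peaks, 24 higher and 5 lower, had a vessel list gene as the nearest coding span while carrying another name. Among them were 2 peaks named Ddi1 that lie inside Pdgfd, a PDGF ligand gene (log2 folds of 1.43 and 0.76 in the authors' deposited table, not called). Near Fn1, the fibronectin gene, the peak at a span gap of 70565 bases, named Apol7d, had 5.31 against 4.10 in the authors' deposited table (log2 fold 1.20, FDR 0.188). Near Tgfbr3, a TGF-beta co-receptor gene, a peak named Cdc7 had a log2 fold of 0.79 (FDR 0.401 per the authors' deposited table). The Prickle2 peak at the lower bound lies 16365 bases from Adamts9, another antiangiogenic protease gene.

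By level, the strongest of all 941 peaks was 110878 bases upstream of Bach2, a transcription repressor gene, with 8.38 in knockout and 7.72 in control in the authors' deposited table (log2 fold 0.65, FDR 0.236). By RefSeq that peak lies within the span of Bach2. Slc45a1 (7.67 against 7.07), L3mbtl4 (7.58 against 6.96) and Itprid2 (7.29 against 6.69) were also among the 5 highest in the authors' deposited table, with log2 folds of 0.60, 0.62 and 0.60, the remaining one being at a predicted gene. All were higher in the knockout mean and none was called. Among lower peaks with both levels above their minimum, large folds short of the threshold were at Tnks, the tankyrase gene (-2.92, FDR 0.0571), and Sptlc3, a sphingolipid synthesis gene (-2.76, FDR 0.0865), in the authors' deposited table. Another Tnks peak in the range, 144153 bases upstream, went the other way, with 4.33 against 2.09 (log2 fold 2.24, FDR 0.118 per the authors' deposited table).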

How the data were processed

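The submitters' processing notes give the build mm10 and, with no roles or order, Bowtie2, Trimmomatic 0.36, Picard 1.119, SAMtools, MACS2, deepTools, ChIPseeker, DiffBind and edgeR. Peak set, read shifting, scaling and annotation settings were not given in the sources used here. Per the file headers, the authors deposited log2 levels (a mean per group and over both), a log2 fold, an unadjusted p-value and an FDR for each of 6891 peaks, with the distance, class and nearest gene. The log2 fold equals knockout minus control, by its values. Which libraries entered each mean was not stated, and 2 of 4 libraries with conflicting labels were left unassigned.

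Peaks were selected by class and distance with Python 3.11.15 and pandas 2.3.3. Their signed distances were checked against RefSeq starts: 653 of 683 peaks with a start on record fell within 10 bases of one, and the sign agreed in all 653. Of the 941 peaks, 928 had a symbol in the RefSeq table. Shares have 95% Wilson intervals from scipy 1.17.1. The counting steps were tested on simulated data. No test over samples could be run.

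The peaks and gene lists were chosen with earlier results of these data known. Named genes were, per direction, up to 15 of smallest FDR among called peaks and 5 of largest fold above the column minimum, 5 of highest level, 10 genes and 5 runs with most peaks, up to 6 genes per list, and the peaks at each distance bound. Predicted genes were counted but not named, except those whose start windows are shown. Genes set beside a promoter or nearest-span value, and microRNA genes, were picked after their values were seen. Some results are not reported here. Alternatives were other FDR, signal and distance limits, 1 peak per gene or run, and removal of peaks on RefSeq spans or at a column minimum.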

Additional observations from a re-analysis of the deposited data

How the results depend on the processing

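Of 46 alternative values over 13 results, 29 stayed within the main value's range and 17 moved. For shares and medians that range was the 95% interval of the main value. Counts have no such interval, and their range was a fixed fold around the main count. The 25 called peaks became 2 at FDR under 0.01 (1 higher, 1 lower) and 77 at FDR under 0.1 (54 higher, 23 lower), where 8.18% of the 941 and 7.89% of all listed peaks pass. They became 10 (9 higher) with a mean level at or above the table's median, 39 at 25 to 200 kb, 13 at 50 to 100 kb (10 higher) and 12 at 100 to 200 kb, where the balance turned to 5 higher and 7 lower. The share higher went from 79.4% to 60% at FDR under 0.05, 70.1% at FDR under 0.1 and 85.9% at or above the median level. At FDR under 0.05 the median log2 fold was 1.94 for higher and -3.11 for lower peaks, the median distance 98299 bases and the median level 3.58. At 100 to 200 kb the median fold of lower peaks was -1.64, and at 25 to 200 kb the median distance was 60846 bases. At FDR under 0.1, 6 of 63 peaks of the vessel lists and 0 of 9 of the marker lists passed, beside 8.18% of the 941. These counts are too small to set the lists apart. The share higher stayed above 50% in each alternative run for it. At FDR under 0.05, however, it rested on 15 of 25 peaks, and its interval of 40.7% to 76.6% includes 50%. Leaving out peaks on RefSeq spans or keeping 1 peak per run, both chosen after seeing the data, moved no share or count past its range. The causes were not tested. Motif shares in whole peaks or in 200-base windows were not run, since no genome was used. No paired analysis was possible because the table has 1 mean per group, so no library could be left out either. The FDR of the peaks had a median of 0.34, and low peaks rest on values at the column minima.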

Other observations

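The 1 run in which all peaks were lower lay on chromosome 8 at predicted genes, with log2 folds of -0.98, -1.23 and -0.73 over 44148 bases in the authors' deposited table and a smallest FDR of 0.371. Runs with both directions included Edn3, an endothelin gene (-0.85, 1.98 and -0.93 in the authors' deposited table), and Pabpc1 and Ywhaz (1.54, -2.27 and -1.70 in the authors' deposited table). Both genes were chosen after their values were seen. In 3 peaks the assigned symbol (Mir466h, Fau and a predicted gene) lies on another chromosome in the RefSeq table. Among them is the peak over the Gm30615 start window, which the authors assigned to Fau. Those 3 peaks had log2 folds of 1.38, 0.79 and 2.21 in the authors' deposited table.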
